A study of Mus musculus with 24 samples.

Results

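The genes described here are 10 members of the expression signature of crypt base stem cells other than Lgr5, namely Ascl2, Tnfrsf19, Prom1, Msi1, Slc12a2, Soat1, Ephb3, Smoc2, Cdca7 and Sox9. They were taken by Entrez identifier from every library's table, where they are 10 of 36528 gene rows. RNA sequencing was done on sorted cells of mouse tumours from the small intestine, whose genotype is given as AKVPL, a code the labels do not expand. Tumours were treated with diphtheria toxin (DT) to remove the cells that express Lgr5, and cells were collected at 24, 48 or 96 h. The control tumours of the same genotype received saline and were taken at the same 3 times. Each of the 6 groups held 4 libraries, 24 in all. EpCAM, a surface protein of epithelial cells, stands in the names of the samples, with the sort labelled bulk, and nothing in the labels describes them as sorted stem cells. The labels give no age, no strain and no description of the allele that carries the toxin receptor. Whether the 4 libraries of a group came from different animals is not stated, and the p-values therefore cover only the variation among these libraries, which may be technical.

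Stem cells at the base of the intestinal crypt sit between Paneth cells and divide continuously, and Wnt signalling keeps them in place and in cycle. Lgr5, a receptor for R-spondins, marks these cells, and the signature genes were drawn from comparisons of such cells with their daughters in normal mouse intestine. Their products differ widely in role: Ascl2 and Sox9 are transcription factors, Tnfrsf19 and Ephb3 are receptors, Prom1 is a membrane glycoprotein, Msi1 binds RNA, Smoc2 is secreted into the matrix, Slc12a2 carries ions, Soat1 esterifies cholesterol and Cdca7 binds chromatin. Diphtheria toxin stops protein synthesis in cells that carry its receptor and kills them.

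Total counts per library, in units of 1e6, were between 10.9 and 27.7. After a filter on low counts 17468 genes were tested, and all 10 signature genes passed it in the fit over all groups. The lowest count of any of them in a library was 284, for Ascl2, and the highest was 22701, for Prom1. On the first principal component of all genes, DT replicate 3 of 48 h had a score of 2.97. The other DT libraries of that time lay at -30.9 to -18.4 and the saline libraries of that time at 17.3 to 24.4. The DT libraries of 96 h lay at -6.86 to -1.12. Without DT replicate 3 the 48 h calls among the 10 genes were the same 2, Tnfrsf19 and Cdca7. The changes of the other 8 lay between -0.17 and 0.15 (adjusted p by edgeR 0.264 to 0.981). Of 8 epithelial markers, Epcam and Cdh1 were lower and Krt18 and Krt19 higher in DT libraries at 24 h, and none passed the test at 48 or 96 h. At 24 h 18.9% of all tested genes were called lower and 19.9% higher. Epcam averaged 1320 ± 91.2 CPM (counts per 1e6 counts of a library) in DT and 1590 ± 58.1 CPM in saline libraries at 24 h (SD, n = 4 each).

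Of the 10 genes, 3 carry the main contrasts below: Tnfrsf19 for those that fell, Ascl2 for those that did not pass the test at any time, and Cdca7 for the gene that rose. The bases before their starts are shown for reference, from RefSeq on GRCm38.p6, 5′ to 3′ on the gene's strand. Capitals mark matches to any of 3 motifs searched on both strands: a TCF/LEF motif (CTTTG followed by AA, by AT, by TA or by TT), an E2F motif (TTTCCCGC, TTTCGCGC, TTTGCCGC or TTTGGCGC) and the E-box CAGCTG. The Cdca7 stretch ends where an annotated exon (GENCODE M21) begins.
Tnfrsf19, second of the listed starts, inside the gene, minus strand, chr14:61037988-61038237: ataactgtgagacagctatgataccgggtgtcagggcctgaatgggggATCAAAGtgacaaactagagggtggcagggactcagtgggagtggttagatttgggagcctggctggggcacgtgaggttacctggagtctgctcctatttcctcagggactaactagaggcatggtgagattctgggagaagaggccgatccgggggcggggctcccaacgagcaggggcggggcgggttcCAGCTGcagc
Ascl2, minus strand, chr7:142969265-142969514: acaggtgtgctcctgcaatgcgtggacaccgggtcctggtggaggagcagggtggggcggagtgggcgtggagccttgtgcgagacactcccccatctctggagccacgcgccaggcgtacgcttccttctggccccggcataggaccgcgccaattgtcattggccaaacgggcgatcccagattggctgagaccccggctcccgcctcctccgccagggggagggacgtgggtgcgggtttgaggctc
Cdca7, plus strand, chr2:72475969-72476158: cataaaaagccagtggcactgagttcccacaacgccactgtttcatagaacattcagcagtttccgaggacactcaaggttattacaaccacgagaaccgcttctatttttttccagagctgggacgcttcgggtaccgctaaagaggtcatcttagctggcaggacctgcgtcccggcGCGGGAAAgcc

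The starts used here covered 6 of the 10 genes, with 8 starts. Those on chromosome 18, where Slc12a2 lies, were left out. In the 250 bases before each start, a TCF/LEF match was found only at the second start of Tnfrsf19, an E2F match only at Cdca7, and the E-box at the second start of Tnfrsf19 and at Ephb3. No match was found before the Ascl2 start, the first start of Tnfrsf19, the start of Soat1 or either start of Prom1. Over 32851 promoters of the same length, 14.8% held the TCF/LEF motif, 1.9% the E2F motif and 13.0% the E-box. A match describes letters in these windows and not a bound site. The bases after either start of Tnfrsf19 were not found in a GENCODE M21 transcript of the gene. Those after every other start used were found.

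Lgr5, the marker of the cells that the toxin was given to remove (Entrez 14160, chromosome 10, 115450314 to 115587780 on GRCm38.p6), was examined first as the check of the labels. At 24 h it stood at 84.0, 84.8, 77.0 and 79.5 CPM in DT libraries and at 179, 209, 194 and 217 CPM in saline libraries. At 48 h the values were 95.3, 117, 171 and 98.6 CPM in DT and 198, 185, 164 and 182 CPM in saline libraries. At 96 h they were 125, 125, 135 and 122 CPM in DT and 170, 181, 152 and 181 CPM in saline libraries. The groups did not overlap at 24 and 96 h. At 48 h only replicate 3 of the DT group reached the saline range. Lgr5 fell 2.46-fold at 24 h (log2 change -1.30 ± 0.12, adjusted p = 4.4e-08, edgeR quasi-likelihood test with Benjamini-Hochberg adjustment over all tested genes, as for every adjusted p of DT against saline here). It fell by 0.60 ± 0.12 at 48 h (adjusted p = 0.00272 by edgeR) and by 0.43 ± 0.12 at 96 h (adjusted p = 0.0447 by edgeR). Without DT replicate 3 the 48 h change was -0.80 (adjusted p = 2.1e-06 by edgeR), and in a fit of the 48 h libraries alone its adjusted p by edgeR was 0.0663. The 96 h call was lost when any 1 of the 8 libraries of that time was left out, with adjusted p by edgeR of 0.0613 to 0.152. It was also lost under scaling by DESeq2's size factors, the upper quartile or the authors' size factors (adjusted p 0.0545 to 0.0584), with no low count filter (0.0655) and with a replicate block (0.0665), so that it held in 4 of 9 other settings. Each DT group thus held a reduced but measurable level of Lgr5, at 40.7% of the saline mean at 24 h, 66.1% at 48 h and 74% at 96 h. In sorted bulk cells, fewer cells of a type and less RNA per cell cannot be told apart, for Lgr5 and for every gene below.

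At 24 h, 3 of the 10 signature genes fell (Tnfrsf19, Smoc2 and Prom1), 1 rose (Cdca7) and 6 did not pass the test. Over all tested genes 18.9% were called lower and 19.9% higher at that time, so a count of 4 of 10 is close to the share of all genes. At 48 h 1 gene was lower (Tnfrsf19) and 1 higher (Cdca7), where 6.48% of all tested genes were called lower and 4.83% higher. At 96 h none of the 10 was called by edgeR and 3 had an unadjusted p under 0.05 (Ephb3, Cdca7 and Slc12a2, all higher in DT libraries), where 3.02% of all genes were called lower and 1.01% higher. DESeq2 called 1 of the 10 at 96 h, Ephb3. The median log2 change of the 10 genes was 0.02 at 24 h, -0.01 at 48 h and 0.03 at 96 h, against 0.00, 0.00 and -0.01 over all tested genes.

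**Figure D1:**
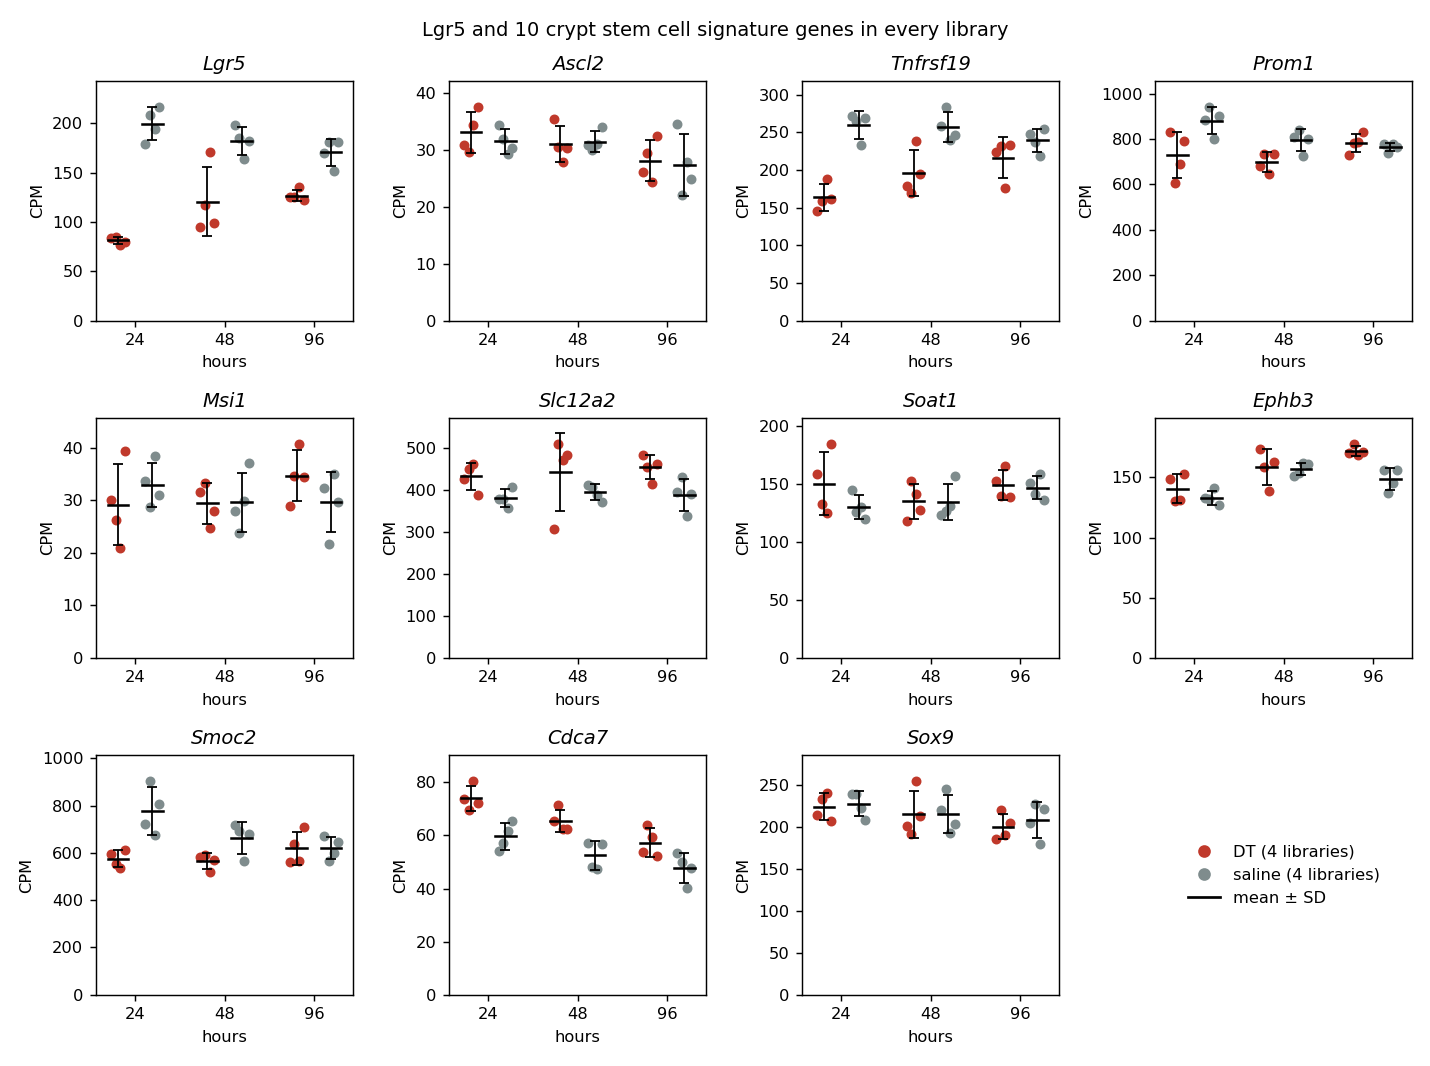
Level of Lgr5 and the 10 signature genes in every library, in counts per 1e6 counts (CPM) on a linear axis from 0, against the time in hours after DT (red, left of each pair) or saline (grey). Bars give the mean and SD of 4 libraries. Tnfrsf19 and Smoc2 fall below every saline library at 24 h, Cdca7 lies above every saline library at 24 and 48 h, and Ascl2 overlaps saline at all 3 times.

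Tnfrsf19 (Entrez 29820, chromosome 14, 60963834 to 61046855), also known as Troy, is a receptor of the tumour necrosis factor receptor family and a Wnt target in the crypt. It was the member nearest to Lgr5. At 24 h it stood at 146, 159, 188 and 161 CPM in DT libraries and at 272, 265, 233 and 269 CPM in saline libraries. At 48 h it stood at 179, 170, 239 and 195 CPM in DT and at 259, 284, 240 and 246 CPM in saline libraries. At 96 h the DT libraries held 224, 232, 176 and 233 CPM and the saline libraries 248, 237, 219 and 254 CPM. The DT values were under the whole saline range at 24 and 48 h, although DT replicate 3 at 48 h, at 239 CPM, was next to the lowest saline library, at 240 CPM. The ranges overlapped at 96 h. Tnfrsf19 fell 1.59-fold at 24 h (log2 change -0.67 ± 0.10, adjusted p = 1.4e-05 by edgeR) and 1.32-fold at 48 h (-0.40 ± 0.10, adjusted p = 0.0124 by edgeR). At 96 h the log2 change was -0.15 ± 0.10 (adjusted p = 0.561 by edgeR, 95% interval -0.36 to 0.07). The 48 h call was kept without DT replicate 3 (-0.49, adjusted p = 0.00180 by edgeR) and was lost without DT replicate 2 (adjusted p = 0.0640) and in a fit of the 48 h libraries alone (adjusted p = 0.0617).

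Smoc2 (Entrez 64074, chromosome 17, 14279490 to 14404790) encodes a secreted calcium-binding matrix protein. It stood at 597, 555, 534 and 612 CPM in DT libraries at 24 h, against 721, 904, 677 and 805 CPM in saline libraries. The 48 h values were 584, 593, 519 and 570 CPM in DT and 716, 693, 564 and 681 CPM in saline libraries. At 96 h they were 562, 638, 565 and 709 CPM in DT and 673, 566, 599 and 646 CPM in saline libraries. The groups were separate at 24 h and overlapped at 48 and 96 h. Smoc2 fell 1.35-fold at 24 h (log2 change -0.43 ± 0.09, adjusted p = 6.4e-04 by edgeR). The log2 change was -0.23 ± 0.09 at 48 h (adjusted p = 0.115 by edgeR, 95% interval -0.42 to -0.03) and -0.01 ± 0.09 at 96 h (adjusted p = 0.993 by edgeR, 95% interval -0.20 to 0.19). Without saline replicate 3 at 48 h the gene was called at that time too (-0.30, adjusted p = 0.0439 by edgeR). Smoc2 is also known as a gene of stromal fibroblasts. Of 8 fibroblast markers, 2 were higher at 24 h (Dcn and Pdgfra), where 19.9% of all tested genes were called higher. None of the 8 passed the test at 48 or 96 h. Their summed level was 2900 to 6670 CPM in DT and 3400 to 4000 CPM in saline libraries at 24 h, and all 8 passed the low count filter. Their median log2 change was 0.56 at 24 h, 0.56 at 48 h and 0.04 at 96 h. At 48 h the sums were 7020 to 11400 CPM in DT and 3610 to 7300 CPM in saline libraries, and at 96 h 5380 to 9900 CPM in DT and 2740 to 9670 CPM in saline libraries. Their part in the level of Smoc2 was not tested.

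Prom1 (Entrez 19126, chromosome 5, 43993621 to 44102047) encodes prominin 1 (CD133), a glycoprotein of membrane protrusions. It stood at 829, 605, 691 and 789 CPM in DT libraries at 24 h and at 882, 942, 798 and 900 CPM in saline libraries. DT replicates 2, 3 and 4 lay below all saline libraries and replicate 1 lay inside their range. At 48 h Prom1 spanned 647 to 735 CPM in DT and 726 to 841 CPM in saline libraries, and at 96 h it spanned 730 to 831 CPM in DT and 739 to 778 CPM in saline libraries. It fell 1.21-fold at 24 h (log2 change -0.27 ± 0.08, adjusted p = 0.00755 by edgeR), a call lost in a fit of the 24 h libraries alone (adjusted p = 0.0588 by edgeR). The log2 change was -0.18 ± 0.08 at 48 h (adjusted p = 0.135 by edgeR) and 0.03 ± 0.08 at 96 h (adjusted p = 0.917 by edgeR). The 24 h change of Epcam was of similar size (-0.26 ± 0.06, adjusted p = 0.00141 by edgeR). Krt18 and Krt19 went the other way (0.37 ± 0.08 and 0.43 ± 0.10). Of the 8 epithelial markers 2 were lower and 2 higher at 24 h, with a median log2 change of 0.08. The part of epithelial content in the level of Prom1 was not tested.

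Ascl2 (Entrez 17173, chromosome 7, 142966822 to 142969264) is a basic helix-loop-helix transcription factor that Wnt signalling switches on and that is needed to maintain Lgr5+ stem cells in normal intestine. It did not pass the test at any time. At 24 h it stood at 30.8, 29.6, 34.3 and 37.6 CPM in DT libraries and at 34.4, 32.0, 29.3 and 30.4 CPM in saline libraries. At 48 h the values were 35.5, 30.6, 27.8 and 30.4 CPM in DT and 30.9, 29.9, 31.1 and 34.0 CPM in saline libraries. At 96 h they were 26.1, 29.5, 24.3 and 32.5 CPM in DT and 34.6, 22, 27.9 and 24.9 CPM in saline libraries. The groups overlapped at all 3 times. The log2 change at 24 h was 0.07 ± 0.11 (adjusted p = 0.660 by edgeR), and its 95% interval of -0.17 to 0.31 does not reach the fall of Lgr5 at that time. At 48 h it was -0.02 with a 95% interval of -0.25 to 0.22, and at 96 h 0.04 with an interval of -0.21 to 0.28. Leaving out each library in turn moved the 24 h change between 0.00 and 0.12.

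The other transcription factor, Sox9 (Entrez 20682, chromosome 11, 112782210 to 112787757), is active in crypt stem cells and is required for Paneth cells. It stood at 214, 234, 241 and 207 CPM in DT libraries and at 239, 240, 223 and 209 CPM in saline libraries at 24 h. The groups overlapped at this and both later times, where all libraries lay between 180 and 255 CPM. Its log2 change was -0.03 ± 0.09 at 24 h, 0.00 ± 0.09 at 48 h and -0.06 ± 0.09 at 96 h, with adjusted p by edgeR of 0.853, 0.982 and 0.862. The 95% interval at 24 h ran from -0.22 to 0.17. Of 6 Paneth cell markers, 3 were lower at 24 h (Ang4, Itln1 and Defa24), 1 at 48 h (Defa24) and none at 96 h. Over all tested genes 18.9%, 6.48% and 3.02% were called lower at these times. The changes of Ang4 (-3.15 ± 0.63) and Defa24 (-1.94 ± 0.58) at 24 h had wide errors. The summed level of the 6 markers was 524 to 794 CPM in DT and 768 to 848 CPM in saline libraries at 24 h, and all 6 passed the filter. Lyz1, the lysozyme gene that defines Paneth cells, had a log2 change of 0.07 ± 0.47 at 24 h (adjusted p = 0.921 by edgeR).

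Msi1 (Entrez 17690, chromosome 5, 115359059 to 115455698), which encodes the RNA-binding protein Musashi 1, had the widest spread of the 10 genes, with a coefficient of variation of 12.7% to 26.7% within groups. It stood at 30.0, 26.3, 21.0 and 39.5 CPM in DT and at 33.8, 28.7, 38.4 and 31.0 CPM in saline libraries at 24 h. The DT libraries lay on either side of the saline range. The log2 change was -0.18 ± 0.17 at 24 h (adjusted p = 0.437 by edgeR, 95% interval -0.55 to 0.18), -0.01 ± 0.17 at 48 h and 0.21 ± 0.17 at 96 h. A fall of the size measured for Smoc2 at 24 h lies inside that interval and was not excluded for Msi1.

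Ephb3 (Entrez 13845, chromosome 16, 21204620 to 21223309) is a Wnt-induced receptor for ephrin-B ligands that helps to sort crypt cells by position. It overlapped between the groups at 24 and 48 h, with log2 changes of 0.08 ± 0.07 and 0.01 ± 0.07. At 96 h the DT libraries held 170, 178, 169 and 171 CPM and the saline libraries 156, 137, 145 and 156 CPM. All 4 DT libraries were above all 4 saline libraries at that time. The log2 change of 0.21 ± 0.07 nevertheless missed the threshold (adjusted p = 0.0719 by edgeR). It passed under scaling by DESeq2's size factors (adjusted p = 0.0481), under the authors' size factors (adjusted p = 0.0493), by DESeq2 (adjusted p = 0.0179) and in a fit of the 96 h libraries alone (adjusted p = 0.0451).

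Slc12a2 (Entrez 20496, chromosome 18, 57878512 to 57946821) encodes the sodium, potassium and chloride cotransporter NKCC1. It stood at 427, 451, 462 and 389 CPM in DT and at 378, 379, 358 and 408 CPM in saline libraries at 24 h, and at 306, 510, 472 and 483 CPM in DT and 412, 408, 389 and 372 CPM in saline libraries at 48 h. At 96 h it stood at 484, 455, 415 and 463 CPM in DT and at 394, 431, 337 and 390 CPM in saline libraries. At each time 3 of 4 DT libraries were above every saline library, and the 48 h exception, replicate 1, was below every saline library. The log2 changes of 0.18 ± 0.11, 0.16 ± 0.11 and 0.23 ± 0.11 at 24, 48 and 96 h did not pass the test (adjusted p = 0.190, 0.354 and 0.307 by edgeR). Without DT replicate 1 the 48 h change was 0.31 (adjusted p = 0.0129 by edgeR), and in a fit of the 24 h libraries alone the 24 h change was 0.20 (adjusted p = 0.0459 by edgeR).

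Soat1 (Entrez 20652, chromosome 1, 156428108 to 156474328) encodes sterol O-acyltransferase 1. It stood at 159, 133, 125 and 185 CPM in DT libraries and at 145, 126, 130 and 120 CPM in saline libraries at 24 h, with a log2 change of 0.21 ± 0.11 (adjusted p = 0.128 by edgeR). DT replicates 1 and 4 were above all saline libraries, and without DT replicate 3 the change was 0.30 (adjusted p = 0.0356 by edgeR). At 48 and 96 h the log2 changes were 0.01 ± 0.11 and 0.02 ± 0.11.

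Cdca7 (Entrez 66953, chromosome 2, 72476187 to 72486892) encodes a zinc finger protein that works with the chromatin remodeller Hells (Lsh). It was the only member that rose at any time. At 24 h it stood at 73.7, 69.5, 80.5 and 72.3 CPM in DT libraries and at 54.2, 57.1, 61.7 and 65.5 CPM in saline libraries. The 48 h values were 65.4, 71.3, 62.6 and 62.4 CPM in DT and 57.3, 48.2, 47.5 and 56.9 CPM in saline libraries. At 96 h they were 53.7, 63.8, 59.4 and 52.3 CPM in DT and 53.2, 50.1, 40.1 and 47.9 CPM in saline libraries. The groups were separate at 24 and 48 h, and at 96 h 3 of 4 DT libraries were above all saline libraries. Cdca7 rose 1.24-fold at 24 h (log2 change 0.31 ± 0.09, adjusted p = 0.00636 by edgeR) and 1.25-fold at 48 h (0.32 ± 0.09, adjusted p = 0.0210 by edgeR). At 96 h its change was 0.26 ± 0.09 (adjusted p = 0.111 by edgeR). The 48 h call was lost without DT replicate 2 (adjusted p = 0.0557), without saline replicate 2 (adjusted p = 0.0768), without saline replicate 3 (adjusted p = 0.0663) and in a fit of the 48 h libraries alone (adjusted p = 0.0521).

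Cdca7 is expressed in cycling cells, and S phase genes were examined beside it. Of 13 such genes, Hells among them, 13 rose at 24 h, 6 at 48 h and 1 (Mcm2) at 96 h, and none fell. Over all tested genes 19.9%, 4.83% and 1.01% were called higher at these times. The median log2 changes of the 13 genes were 0.95, 0.29 and 0.26 at the 3 times, against 0.00, 0.00 and -0.01 over all genes. Their summed level at 24 h was 942 to 1440 CPM in DT and 569 to 630 CPM in saline libraries. Hells averaged 72.4 ± 10.8 CPM in DT and 37.5 ± 2.46 CPM in saline libraries at 24 h (SD, n = 4 each), a log2 change of 0.95 ± 0.10 (adjusted p = 1.6e-07 by edgeR). At 24 h the smallest p-values in the list belonged to Uhrf1 (1.34 ± 0.13) and the helicase subunit Mcm2 (0.86 ± 0.08), with adjusted p by edgeR of 3.1e-08 and 4.0e-08. The part of cell cycle composition in the level of Cdca7 was not tested. The log2 change of Cdca7 was about as large at 96 h as at 24 h, and its 0.26 equalled the S phase median at 96 h. Hells was at 0.21 ± 0.10 at 48 h, when Cdca7 was called and Hells was not (adjusted p = 0.190 by edgeR). At 96 h Hells was at 0.10 ± 0.10 (adjusted p = 0.743 by edgeR). Mcm2 was at 0.35 ± 0.08 at 96 h (adjusted p = 0.0173 by edgeR), when Cdca7 was not called. Differences in course between Cdca7 and the S phase genes were not tested.

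**Figure D2:**
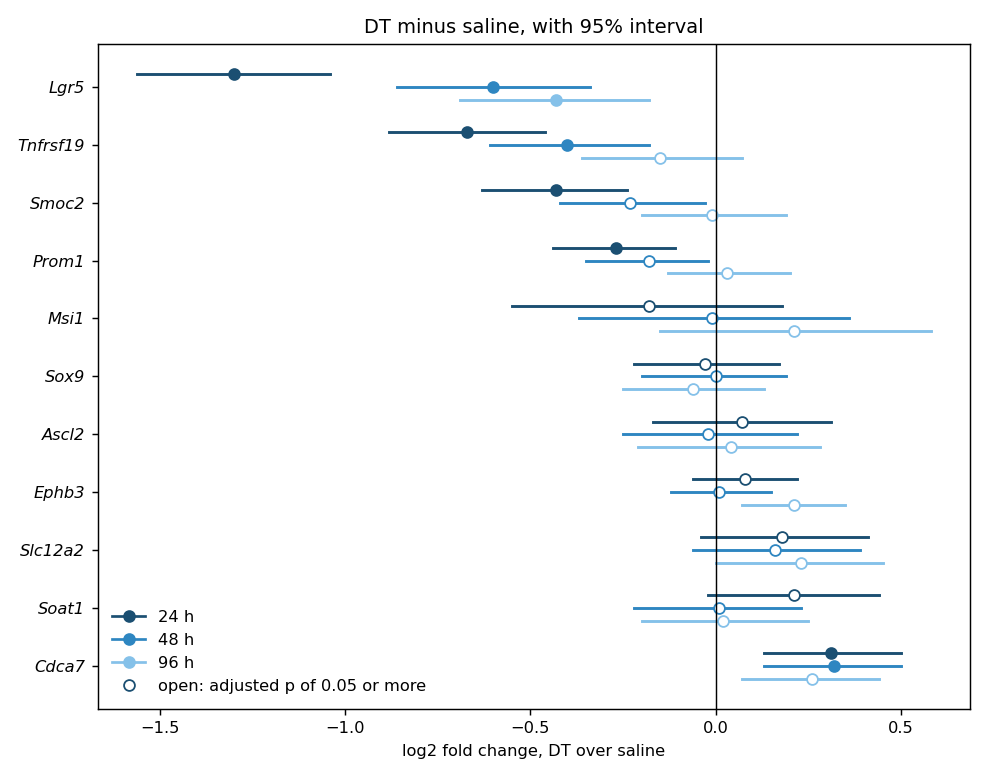
Log2 fold change of DT over saline for Lgr5 and the 10 signature genes (rows) at 24, 48 and 96 h (dark to light blue), with 95% intervals from the edgeR fit. Filled points passed an adjusted p of 0.05. Lgr5 stands at -1.30, -0.60 and -0.43, Tnfrsf19 at -0.67, -0.40 and -0.15, and Cdca7 at 0.31, 0.32 and 0.26.

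Whether the DT effect changed with time was tested by interaction terms, both of which share the 24 h libraries. Between 24 and 48 h none of the 10 genes passed by edgeR and none had an unadjusted p under 0.05, where 2.90% of all genes were called. Lgr5 did pass, with its effect higher by 0.70 ± 0.17 at 48 h (adjusted p = 0.0273 by edgeR). That call was lost with a replicate block (adjusted p = 0.0506 by edgeR), with only the 24 and 48 h libraries (0.0862), without DT replicate 3 or saline replicate 2 or 4 of 24 h, and without saline replicate 3 of 48 h (0.0549 to 0.0710). Between 24 and 96 h 2 of the 10 passed, where 11.9% of all genes were called. The effect on Tnfrsf19 was -0.15 at 96 h against -0.67 at 24 h, a difference of 0.52 ± 0.14 (adjusted p = 0.0177 by edgeR). The effect on Smoc2 was -0.01 at 96 h against -0.43 at 24 h, a difference of 0.43 ± 0.13 (adjusted p = 0.0333 by edgeR), and the call was lost without DT replicate 2 or 3 or saline replicate 2 of 24 h, and without DT replicate 2 or 4 or saline replicate 2 of 96 h (adjusted p by edgeR 0.0629 to 0.0789). The difference for Prom1 was 0.31 ± 0.11 (adjusted p = 0.0721 by edgeR). It passed by DESeq2 (adjusted p = 0.0353) and, by edgeR, without DT replicate 1 or 4 or saline replicate 3 of 24 h (adjusted p 0.0150 to 0.0473). For Lgr5 it was 0.86 ± 0.17 (adjusted p = 0.00232 by edgeR).

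The saline groups were compared with each other to see how far the baseline drifted. Saline libraries at 96 h against those at 24 h gave no call among the 10 genes by edgeR, with 4 at an unadjusted p under 0.05, where 3.22% of all genes were called. The largest of these drifts were in Smoc2, at 621 ± 47.7 CPM at 96 h and 777 ± 100 CPM at 24 h (log2 change -0.32 ± 0.09, adjusted p = 0.0554 by edgeR), and in Cdca7, at 47.9 ± 5.59 CPM at 96 h and 59.6 ± 5.02 CPM at 24 h (-0.31 ± 0.09, adjusted p = 0.0509 by edgeR, SD, n = 4 each). DESeq2 called both. In DT libraries Smoc2 averaged 575 ± 36.6 CPM at 24 h, 566 ± 33.0 CPM at 48 h and 619 ± 69.9 CPM at 96 h, so the gap between the groups at 24 h stood beside a saline level that was higher at 24 h than at 96 h.

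Which genes follow Lgr5 was also asked directly, by testing the log2 level of each gene minus that of Lgr5 in the same library with limma. A value of 0 means a fall as large as that of Lgr5, and a positive value a smaller fall or a rise. At 24 h the difference was positive and passed for all 10 genes, at 0.62 ± 0.14 for Tnfrsf19 (adjusted p = 9.7e-05 by limma), 0.86 ± 0.15 for Smoc2 (adjusted p = 3.1e-06), 1.01 ± 0.15 for Prom1 (adjusted p = 1.6e-07) and up to 1.61 ± 0.15 for Cdca7 (adjusted p = 8.2e-12). The test called 94.6% of all genes at 24 h, 76.1% at 48 h and 51.0% at 96 h, so passing it is the common case and is nothing particular to these genes. At 48 h 9 of the 10 passed and Tnfrsf19 did not (0.23 ± 0.14, adjusted p = 0.127 by limma, 95% interval -0.06 to 0.52). Without DT replicate 3 of that time Tnfrsf19 passed as well (0.31, adjusted p = 0.0280 by limma). At 96 h 9 again passed and Tnfrsf19 did not (0.28 ± 0.14, adjusted p = 0.0841 by limma, 95% interval -0.01 to 0.57). Tnfrsf19 passed in a fit of the 96 h libraries alone (0.28, adjusted p = 0.0326 by limma) and without DT replicate 3 of 96 h (0.40, adjusted p = 0.0250 by limma), which gives a count of 10. The 96 h count was 3 without saline replicate 4, 4 without saline replicate 2 and 4 without DT replicate 4. Missing the threshold does not show that Tnfrsf19 changed as Lgr5 did. The medians of the 10 genes were 1.31, 0.63 and 0.47 at the 3 times, against 1.28, 0.63 and 0.43 over all genes.

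**Figure D3:**
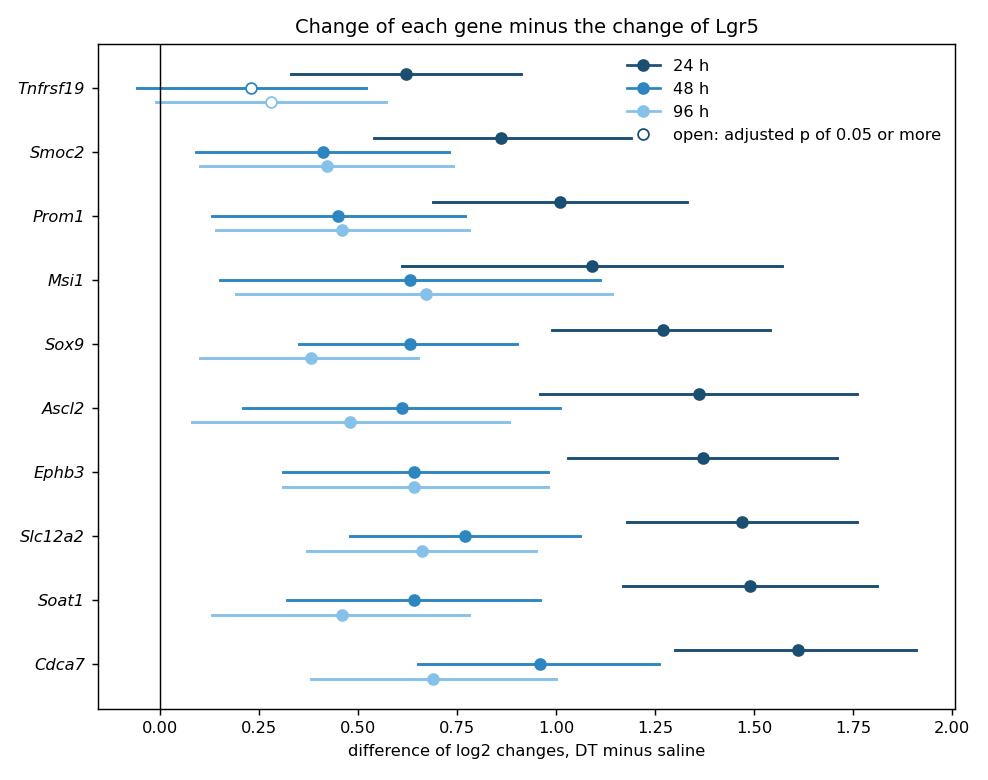
Change of each signature gene minus the change of Lgr5 in the same libraries, as a difference of log2 changes (DT minus saline) with 95% intervals from limma, at 24, 48 and 96 h. A point at 0 would have fallen as Lgr5 did, and open points missed an adjusted p of 0.05. Tnfrsf19 lies nearest to 0 at each time, at 0.62, 0.23 and 0.28, and Cdca7 farthest at 24 h, at 1.61.

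The same quantity can be read as a ratio within each library. Ascl2 stood at -1.30 ± 0.21 on the log2 scale relative to Lgr5 in DT and at -2.66 ± 0.20 in saline libraries at 24 h, and Tnfrsf19 at 1 ± 0.21 in DT and 0.38 ± 0.15 in saline libraries (SD, n = 4 each). The ranges of the ratio did not overlap for either gene, at -1.52 to -1.08 in DT and -2.83 to -2.37 in saline libraries for Ascl2, and at 0.79 to 1.29 in DT and 0.27 to 0.61 in saline libraries for Tnfrsf19.

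Levels of different genes were compared per length, in the authors' normalized RPKM, within saline libraries at 24 h. Smoc2 was highest at 240.0 ± 32.4 and Prom1 next at 140.0 ± 10.5. Slc12a2, Sox9 and Tnfrsf19 followed at 50.2 ± 2.88, 48.9 ± 3.39 and 48.5 ± 3.61, with ranges that overlapped between neighbours. Ephb3 stood at 28.5 ± 1.13, Soat1 at 24.2 ± 2.06 and Cdca7 at 20.8 ± 1.68, and the ranges of Soat1 and Cdca7 overlapped. Ascl2, at 12.0 ± 0.895, and Msi1, at 7.71 ± 0.928, were lowest (SD, n = 4 for each). The genes that fell at 24 h stood in places 1, 2 and 5 of this order of levels. Lgr5 averaged 15.4 ± 0.683 in DT and 37.7 ± 3.24 in saline libraries at 24 h on this scale.

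Each gene's 3 log2 changes were set beside those of all other genes, by the root mean square difference over the 3 times. Among 17467 tested genes ranked by nearness to Lgr5, Tnfrsf19 was in place 776 (0.415), Smoc2 in place 2252 (0.595) and Prom1 in place 3821 (0.692). Ascl2 was in place 9469 and Cdca7 in place 14527, the last of the 10. Over 10313 genes with an assigned symbol and a mean of at least 10 CPM, those near to Lgr5 included Itln1 (log2 changes -1.19, -0.56 and -0.49) and Lmcd1 (-1.36, -0.52 and -0.35). The nearest to Tnfrsf19 were St6galnac2 (-0.65, -0.42 and -0.18), Trp53inp1 (-0.69, -0.37 and -0.17) and Usp35 (-0.63, -0.41 and -0.16). The nearest to Cdca7 were Pigyl (0.34, 0.34 and 0.28), Hspe1 (0.32, 0.32 and 0.21) and Trim59 (0.31, 0.27 and 0.28). Likeness here covers 3 numbers per gene that share the same libraries.

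The closest relatives of the signature genes were examined for the same contrasts. Of 12 relatives 9 passed the filter, and 3 rose and 3 fell at 24 h. At that time 19.9% of all tested genes were called higher and 18.9% lower. Cdca7l, a paralog of Cdca7, rose with it at 24 h, to 47.1 ± 5.52 CPM in DT against 34.8 ± 2.04 CPM in saline libraries (log2 change 0.44 ± 0.08, adjusted p = 1.0e-04 by edgeR). Prom2, a paralog of Prom1, fell as Prom1 did, to 75.3 ± 5.28 CPM in DT against 102 ± 8.42 CPM in saline libraries (-0.44 ± 0.08, adjusted p = 1.9e-04 by edgeR, SD, n = 4 each), and was lower at 48 h too (-0.39 ± 0.08, adjusted p = 0.00326 by edgeR). Msi2, the other Musashi gene, fell at 24 h (-0.47 ± 0.11, adjusted p = 0.00147 by edgeR), where Msi1 did not pass. Smoc1 was higher at 24, 48 and 96 h, when Smoc2 was lower or unresolved, but at low levels of 2.47 ± 0.159 CPM in DT and 1.4 ± 0.555 CPM in saline libraries at 24 h (log2 change 0.82 ± 0.31, adjusted p = 0.0404 by edgeR). Ephb4 was lower at 24 h (-0.21 ± 0.06, adjusted p = 0.00746 by edgeR), Slc12a4 higher (0.32 ± 0.08, adjusted p = 0.00379 by edgeR), and Ephb2 had a change of -0.09 ± 0.06 (adjusted p = 0.202 by edgeR). The differences between paralogs were not tested.

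Ephrin-B ligands meet Ephb3 at the surface of neighbouring cells. Efnb2 rose at all 3 times, while Efnb1 and Efnb3 did not pass at any. Over all tested genes 19.9%, 4.83% and 1.01% were called higher at the 3 times. Efnb2 averaged 133 ± 6.41 CPM in DT and 82.6 ± 4.77 CPM in saline libraries at 24 h (SD, n = 4 each), a log2 change of 0.69 ± 0.07 (adjusted p = 1.1e-07 by edgeR). The change was 0.51 ± 0.07 at 48 h and 0.32 ± 0.07 at 96 h (adjusted p = 1.0e-04 and 0.0105 by edgeR).

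Other genes of the crypt stem cell signature gave the wider setting. Of 22 genes listed, 21 were tested, and 9 fell at 24 h, 4 at 48 h and 2 at 96 h, while none rose at any time. Their median log2 changes were -0.41, -0.20 and -0.06, against 0.00, 0.00 and -0.01 over all genes. Of all tested genes 18.9%, 6.48% and 3.02% were called lower at the 3 times, and 19.9%, 4.83% and 1.01% higher. The smallest p-values at 24 h belonged to Rgmb, a co-receptor for bone morphogenetic proteins, and Rnf43, a ligase that removes Wnt receptors. Rgmb averaged 19.2 ± 1.45 CPM in DT and 31.0 ± 0.922 CPM in saline libraries (log2 change -0.69 ± 0.08, adjusted p = 7.3e-07 by edgeR). Rnf43 averaged 462 ± 60.2 CPM in DT and 631 ± 18 CPM in saline libraries (-0.45 ± 0.07, adjusted p = 2.9e-05 by edgeR, SD, n = 4 each). At 48 h the smallest p-values were those of Znrf3 (-0.49 ± 0.11) and Etv5 (-0.33 ± 0.08), and at 96 h those of Sp5 (-0.64 ± 0.16) and Znrf3 (-0.38 ± 0.11). Olfm4, a stem cell marker in normal small intestine, was close to absent, with 0.210 ± 0.117 CPM in DT and 0.928 ± 0.690 CPM in saline libraries at 24 h, so its change of -2.13 ± 0.56 rests on at most 26 counts in a library.

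**Figure D4:**
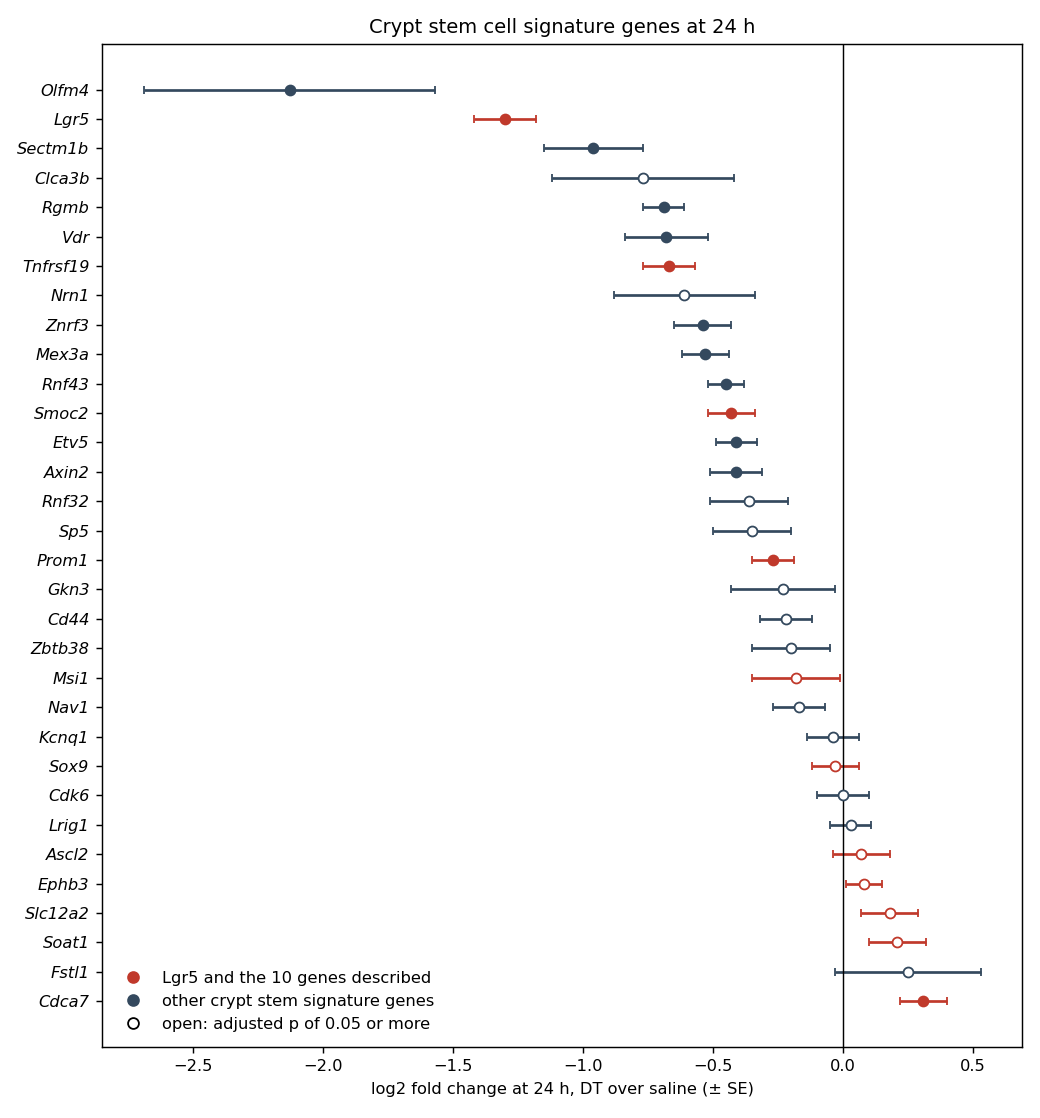
Log2 fold change of DT over saline at 24 h, with its SE, for Lgr5 and the 10 genes described (red) and 21 other crypt stem cell signature genes (blue), ordered by size. Filled points passed an adjusted p of 0.05. Lgr5 stands at -1.30, Rgmb at -0.69, Tnfrsf19 at -0.67 and Ascl2 at 0.07, and Cdca7, at 0.31, is the highest of those shown.

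Several of the signature genes are regarded as Wnt targets, so known Wnt targets and feedback genes were set beside them. Of 15, 10 fell and 1 rose at 24 h, 8 fell and 1 rose at 48 h, and 6 fell and 1 rose at 96 h, with medians of -0.45, -0.28 and -0.38. The shares of all tested genes called lower were 18.9%, 6.48% and 3.02%, and those called higher 19.9%, 4.83% and 1.01%. The list shares Axin2, Sp5, Rnf43 and Znrf3 with the signature list above. Nkd1, an inhibitor in the pathway, averaged 532 ± 76.5 CPM in DT and 1170 ± 65.4 CPM in saline libraries at 24 h (-1.13 ± 0.10, adjusted p = 1.8e-08 by edgeR). Notum, a secreted enzyme that inactivates Wnt proteins, averaged 330 ± 65.2 CPM in DT and 806 ± 57.6 CPM in saline libraries at 24 h (-1.29 ± 0.12, adjusted p = 3.0e-08 by edgeR, SD, n = 4 each). The gene that rose was Myc, by 0.51 ± 0.07 at 24 h, 0.51 ± 0.07 at 48 h and 0.38 ± 0.07 at 96 h (adjusted p = 3.4e-06, 7.7e-05 and 0.00153 by edgeR). At 96 h the smallest p-values were those of Myc and the Wnt inhibitor Wif1 (-1.45 ± 0.25, adjusted p = 0.00185 by edgeR). Tnfrsf19, Ascl2, Sox9 and Ephb3, held to be Wnt targets too, did not pass at 96 h in the main fit. Neither did Axin2 and Rnf43 of this list (adjusted p = 0.399 and 0.803 by edgeR). Ephb3 was higher in DT libraries and passed in 4 of 9 other settings.

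Markers of other cells that the sort could hold were counted beside these results. Of 4 endothelial markers and 5 tested leukocyte markers none passed the test at any time, and the median log2 change of the leukocyte markers was 0.01 at 24 h, -0.42 at 48 h and -0.21 at 96 h. Of 4 tested tuft cell markers, 1 rose (Trpm5) and 1 fell (Dclk1) at 24 h, Dclk1 was lower at 48 h, and none passed the test at 96 h. Over all tested genes 19.9% were called higher and 18.9% lower at 24 h, and 6.48% lower at 48 h. At 24 h the summed leukocyte level was 34.9 to 86.7 CPM in DT and 52.8 to 77.8 CPM in saline libraries, the endothelial level 209 to 231 CPM in DT and 154 to 221 CPM in saline libraries, and the tuft level 226 to 319 CPM in DT and 226 to 262 CPM in saline libraries. Cd3e and Cd79a, which define T and B cells, had at most 5 and 10 counts in any library. Their part in the levels of the 10 genes was not tested.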

How the data were processed

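RNA of the sorted cells was extracted by RNeasy Micro kit, and its polyA fraction was sequenced, per the labels' protocols. The authors deposited 1 table per library, and per the file headers its count column holds uniquely aligned reads for each gene model. These counts were used as deposited. The other deposited column is, per the file headers, RPKM with a size factor adjustment, and it served to compare levels between genes and to recover the authors' size factors (11928 genes with counts of at least 50, relative deviation at most 6.2e-15). GSNAP and GRCm38 are named in the submitters' processing notes. The aligner's version is not given in the sources used here, nor the annotation or whether counting used strand, so overlapping and antisense genes could not be told apart. Symbols came from a RefSeq table (GRCm38.p6) that held 31049 (85.0%) of the Entrez identifiers, and the rest held 1.29% to 1.52% of counts.

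edgeR 4.0.16 under R 4.3.3 was used to test counts (quasi-likelihood test, TMM scaling, filterByExpr, 24 libraries in 1 fit of 6 group means with 18 residual degrees of freedom, common biological variation 0.12 as a coefficient). All p-values were two-sided and adjusted by Benjamini-Hochberg over all 17468 genes, with a threshold of 0.05. The change beyond that of Lgr5 was tested with limma 3.58.1 (trend, robust) on log2 CPM, prior count 2, minus log2 CPM of Lgr5. Alternatives were DESeq2 1.42.0, limma voom, scaling by DESeq2's size factors, by the upper quartile or by the authors' size factors, no low count filter or one of at least 1 CPM in 4 libraries, only the libraries compared, a replicate block and each library left out. The members, gene lists and tests were chosen with earlier results of these data known. Named with values were the 10 members and Lgr5, the 3 genes of nearest course to Lgr5 and to members called at 2 or more times, and the 2 genes of smallest p in each other list. A gene that this rule named is not reported here. The relatives, Hells, Olfm4, Lyz1, Epcam, the other called marker genes and genes of other lists named only for their call were added after their values were seen.

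On simulated counts for the 24 h comparison (17468 genes), 200 genes were changed 1.5-fold or 2-fold, and Lgr5 and 100 further genes were lowered 2-fold. The edgeR test called 67% of genes changed 1.5-fold and 83% of those changed 2-fold, and 13 of its 246 calls were false. Replicates of a group differed by more than sampling noise (chi-square per degree of freedom at least 4.24). Correlations of same-numbered libraries ran from -0.36 to 0.13, so replicate numbers were not taken as pairs.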

Additional observations from a re-analysis of the deposited data

Results flagged for a closer look

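For Tnfrsf19, DT replicate 3 of 96 h stood far from the other libraries of its group, at 176 CPM against 224 to 233 CPM, and its gap to the nearest of them was 0.845 of the group's range, above Dixon's critical value at 95% for 4 samples. It was the single such library in 66 groups of 4 checked over Lgr5 and the 10 genes, and chance gives about 1 in 20. Without it the change of Tnfrsf19 beyond that of Lgr5 at 96 h was 0.40 (adjusted p = 0.0250 by limma).

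The DT effect differed between 24 and 96 h for 2 of the 10 genes by the interaction test of edgeR, where 11.9% of all genes were called. The effect on Tnfrsf19 was 0.52 higher on the log2 scale at 96 h than at 24 h, and that on Smoc2 was 0.43 higher. The Smoc2 call was kept in 10 of 16 fits with 1 library left out. Smoc2 averaged 777 CPM in saline libraries at 24 h and 621 CPM at 96 h, and 575 and 619 CPM in DT libraries.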

How the results depend on the processing

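Fold changes of the 10 genes kept their direction wherever they were called, under all alternatives run. Over single genes, 1693 recomputed values kept their side of the threshold, 61 lost a call and 24 gained one. The 1693 include changes of sign in genes not called, such as Ascl2 at 48 h, at -0.02 to 0.01 without leaving out a library. At 48 h the fit over all groups called 1976 genes and 2 members, but only the 48 h libraries gave 945 genes and 0 members. Leaving out 1 library gave 1165 (without DT replicate 4) to 2742 genes (without DT replicate 3) and 0 (without DT replicate 2) to 3 members. At 96 h it gave 358 (without DT replicate 2) to 677 genes, against 704, and 0 members throughout. The 96 h member count of 0 was 1 (Ephb3) under DESeq2's size factors, the authors' size factors, DESeq2 and only the 96 h libraries. For the interaction between 24 and 96 h the member count of 2 was 1 with no low count filter, 3 by DESeq2 and 1 to 3 with a library left out. For saline at 96 h against 24 h the count of 0 was 1 under DESeq2's size factors, the authors' size factors, the filter of 1 CPM and the replicate block, 2 by DESeq2, and 0 to 2 with a library left out. The member count of 9 for the change beyond that of Lgr5 at 96 h ran from 3 to 10, that at 48 h from 7 to 10. The cause of these shifts was not tested.

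Upper quartile scaling moved the share of higher genes among those called at 96 h to 35.3%, against 25% under TMM, and no scaling moved the median of all genes past 0.02. With the replicate block 6540, 1715 and 589 genes were called at 24, 48 and 96 h, against 6765, 1976 and 704 without it, and 4, 2 and 0 members. Same-numbered libraries correlated above 0.1 in 2 of 12 pairs, and 3 of 12 correlated best with their own number. The numbers were therefore not taken as pairs, although weak correlation cannot exclude a pairing. The lowest counts in a library were 297 for Msi1 and 284 for Ascl2, and replicates differed by more than counting noise.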
